A study of Mus musculus with 39 samples.

Results

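Loss of Prkar1a under Sf1:Cre was compared with the wild type in whole testis of mice at 2 months of age. The comparison used 11 of the 39 arrays of the series, 3 labelled prKO and 8 labelled WT, chosen by their titles. The prKO mice combine floxed Prkar1a with the Sf1:Cre transgene, which acts early in somatic cells from which gonads and adrenal cortex both arise, so that Sertoli cells, Leydig cells and adrenal cortical cells can all carry the deletion while germ cells do not. The WT mice were littermates, per the design text. The titles call the arrays biological replicates, but do not say how many animals went into an array, and p-values measure only the spread between these arrays. For the comparisons with age and driver, the same genotypes at 2 weeks (4 prKO and 8 WT arrays) and 2 other lines at 2 months were used, srKO with Amh:Cre, which acts in Sertoli cells, and lrKO with Cyp11a1:Cre, which acts in steroid-producing cells (4 arrays each). None of these drivers deletes the gene in every cell of the testis, and which exons are removed or covered by the probe set is not given in the sources used here.

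PRKAR1A is the regulatory subunit that holds protein kinase A (PKA) inactive until cAMP binds it. Luteinising hormone acts through cAMP and PKA in Leydig cells to raise cholesterol import and steroid synthesis, and follicle-stimulating hormone uses the same route in Sertoli cells, the nursing cells of the tubules. Loss of PRKAR1A therefore leaves the kinase less restrained. In humans, inherited loss of the gene causes Carney complex, in which adrenal and testicular tumours occur.

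Values are log2 intensities after robust multi-array averaging (RMA), so a difference of 1 is a doubling. Array medians in both groups lay between 5.81 and 5.96, and the lowest correlation between 2 prKO arrays across genes was 0.949. The label on RNA extraction names adrenal glands while every other label names whole testis. The protamine gene Prm1, a marker of spermatids, lay between 11.27 and 11.81 in WT and at 9.95, 9.55 and 10.68 in prKO. Of 6 genes that mark the adrenal medulla, 1 was higher and 1 lower in prKO, and their mean level relative to WT was 0.13, -0.07 and -0.02 in prKO replicates 1 to 3 against a WT range of -0.14 to 0.16. In RNA of whole testis, fewer cells of a type and less RNA per cell cannot be told apart. Replicate 1 of prKO was high in several epididymis genes, and replicates 1 and 3 held more of several adipose tissue genes, so counts are also given without replicate 1, and some results with replicate 2 alone.

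Of 19007 genes tested, 9206 differed between prKO and WT (48.4%; limma, Benjamini-Hochberg adjusted p below 0.05), 4948 of them higher (26%) and 4258 lower (22.4%) in prKO. At least 2-fold changes were found in 928 genes that were higher (4.88%) and 661 that were lower (3.48%), 8.36% of genes in all. Without prKO replicate 1, 8810 genes were called (46.4%), 4972 higher (26.2%) and 3838 lower (20.2%). Changes of at least 2-fold then made up 10.2% of genes, 5.5% upward and 4.73% downward. Both fits shared 8020 calls of the same direction, which is 87.1% of the calls made with all arrays and 91% of those made without replicate 1. Replicate 2 alone against WT, an analysis added after the data were seen in which the single array is assumed to vary like the other groups, gave 6050 calls, 3655 higher and 2395 lower. The median difference over all genes was 0.02. Centring each array on its own median moved that value to -0.10 and turned the split of calls from 53.7% higher to 38% higher, so the balance of rises and falls depends on the scaling.

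Prkar1a itself (probe set 17257874) was lower in prKO, by less than at 2 weeks. Its level lay between 8.61 and 9.0 (median 8.88) in the 8 WT arrays and at 8.66, 8.63 and 8.36 in prKO replicates 1 to 3. Replicate 3 alone lay below all WT arrays, and the other 2 overlapped with the lowest WT array. The difference was -0.30 ± 0.09 (standard error; adjusted p = 0.0078), against -0.78 ± 0.07 at 2 weeks, and the change at 2 months was smaller by 0.48 ± 0.11 (adjusted p = 0.00088 as the age contrast). The fall did not pass the test without prKO replicate 3 (-0.20, adjusted p = 0.097), nor when WT replicates 1 to 4 were the only controls (-0.18, adjusted p = 0.12). With prKO replicate 2 alone it was -0.22. Prkar1a lay between 8.61 and 8.81 in WT replicates 1 to 4 and between 8.95 and 9.0 in WT replicates 5 to 8. The titles name no difference between these WT arrays, and a batch was not tested. Among the 10 protein-coding genes nearest to Prkar1a, 5 were higher and 2 lower, with a median of 0.23, and beside Nr5a1, the gene whose regulatory DNA the Sf1:Cre driver uses, 3 were higher and 3 lower, with a median of -0.08.

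The largest rises were matrix genes, secreted inhibitors, an efflux pump and an adrenal enzyme. Dpt, which encodes the matrix protein dermatopontin, lay between 4.46 and 5.81 (median 5.50) in WT and at 9.84, 9.77 and 10.26 in prKO, a 25.1-fold rise (4.65 ± 0.30, adjusted p = 3e-09). The matrix metalloprotease gene Mmp2 rose from a WT median of 6.37 (5.91 to 6.69) to 9.13, 10.19 and 11.84, and the gene of its inhibitor family Timp1 from 5.13 (4.49 to 5.25) to 7.88, 8.96 and 9.27. All prKO arrays lay above all WT arrays for these 3 genes, and prKO replicate 3 was the highest in each. Abcb1b, which encodes a P-glycoprotein that pumps lipophilic compounds out of cells, rose 24.3-fold (4.60 ± 0.35, adjusted p = 1.1e-08), with 8.13, 9.31 and 11.11 in prKO. Serpina3n, an acute-phase protease inhibitor, reached 10.13, 10.60 and 10.76 against a WT median of 5.77, a difference of 4.60 ± 0.39 (adjusted p = 3.3e-08). Gpx3, the secreted glutathione peroxidase, rose by 3.49 ± 0.27 (adjusted p = 1.1e-08), the retinol-oxidising Adh1 by 3.19 ± 0.25 (adjusted p = 1.2e-08) and the calponin Cnn3 by 3.15 ± 0.19 (adjusted p = 1.6e-09). Ctla2a, a cathepsin inhibitor, was dim in WT (3.70 to 4.00, below the filter value of 4.62) and stood at 6.59, 7.24 and 10.97 in prKO, so the size of its difference depends on the lower end of the array's range. Ifi205 (4.06 ± 0.34, adjusted p = 2.5e-08), an interferon-activated gene, completed the set together with Cyp21a1 and Fabp4, which are described with their groups.

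Prnd, Hsd3b6 and 10 further genes made up the largest falls. Prnd, which encodes the prion-like protein Doppel of the testis, lay between 9.39 and 10.12 (median 9.80) in WT and at 5.65, 5.73 and 5.92 in prKO, a 15.7-fold fall (-3.97 ± 0.15, adjusted p = 3e-12). The gap between the groups was wide and the 3 prKO arrays nearly coincided. Hsd3b6, the 3-beta-hydroxysteroid dehydrogenase of adult Leydig cells, fell 8.87-fold (-3.15 ± 0.31, adjusted p = 1.5e-07). The next largest were Hmgb1-rs17 (-2.82 ± 0.53), Rbm31y (-2.71 ± 0.31), the cystatin family genes Cst13 (-2.50 ± 0.35) and Cstl1 (-2.37 ± 0.34), the kallikrein Klk1b8 (-2.49 ± 0.32) and Bpifa3 (-2.43 ± 0.26). Faiml (-2.37 ± 0.29), Efcab1 (-2.33 ± 0.21), Mgat4f (-2.33 ± 0.27) and Ddi1 (-2.26 ± 0.33) closed the set. In each of these 12 genes all 3 prKO arrays lay below all 8 WT arrays, a pattern held by 13.8% of all genes tested, and 18.3% of genes had all prKO arrays above all WT arrays.

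**Figure D1:**
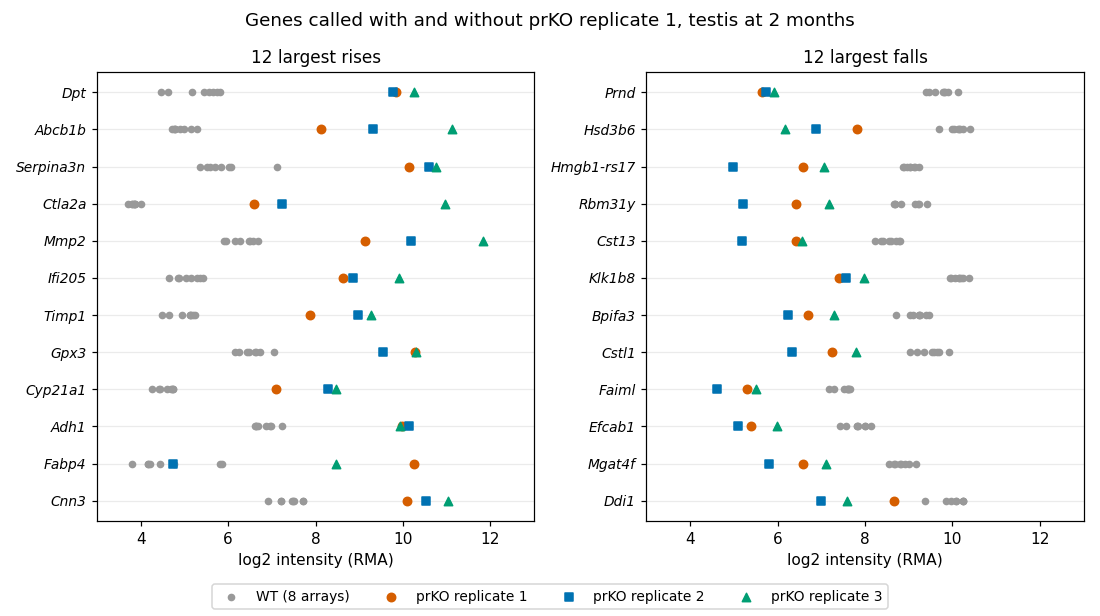
Log2 intensity (horizontal axis) of the 12 genes with the largest rises (left) and the 12 with the largest falls (right) among those called both with and without prKO replicate 1; grey dots are the 8 WT arrays and coloured symbols the 3 prKO arrays. All prKO arrays lie outside the WT range except prKO replicate 2 in Fabp4, at 4.74 between the WT extremes of 3.80 and 5.85.

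Protein kinase A genes moved in both directions. Of 8 tested, 3 were higher and 3, Prkar1a included, lower, with a median of 0.00. Prkar2b, a type 2 regulatory subunit of endocrine and fat cells, lay between 7.01 and 7.58 (median 7.08) in WT and at 9.20, 9.48 and 9.53 in prKO (2.19 ± 0.12, adjusted p = 3.2e-10). Prkar2a, the type 2 regulatory subunit that is abundant in sperm, went from 10.83 (10.45 to 11.13) to 9.24, 8.82 and 9.41 (-1.65 ± 0.26, adjusted p = 3.8e-05). The groups did not overlap in either gene. The kinase inhibitors split likewise, Pkia rising by 1.47 ± 0.15 (adjusted p = 2.1e-07) and Pkib falling by 0.98 ± 0.19 (adjusted p = 0.00031), while the catalytic subunit Prkacb rose by 0.53 ± 0.09 (adjusted p = 8.6e-05).

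Among 24 genes that make or degrade cAMP, 11 were higher and 5 lower, with a median of 0.10. The phosphodiesterase Pde7b, which breaks down cAMP, stood at 7.67, 8.25 and 9.17 in prKO against 5.15 to 5.94 (median 5.75) in WT, a difference of 2.71 ± 0.22 (adjusted p = 2e-08). Pde3a rose by 1.01 ± 0.16 (adjusted p = 3.6e-05), and Adcy10, the soluble adenylate cyclase of sperm, fell by 0.91 ± 0.08 (adjusted p = 2.7e-08). Pde1a fell by 0.75 ± 0.13 (adjusted p = 0.00012).

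Target genes of CREB, the transcription factor that PKA phosphorylates, showed no common direction. Of 21 tested, 6 were higher, 3 lower and 12 not called, with a median of 0.14. Over all genes tested, 26% were higher and 22.4% lower, so these counts do not set the list apart. The same shares stand beside every list count against WT at 2 months. Rgs2, which limits G-protein signalling, rose from a WT range of 7.27 to 7.66 to 8.99, 9.35 and 9.83 (1.93 ± 0.12, adjusted p = 2.7e-09), and the groups were far apart. Cited2 (0.64 ± 0.13, adjusted p = 0.00063) and Egr1 (0.59 ± 0.12, adjusted p = 0.00055) rose. Nr4a1, a hormone-induced nuclear receptor, fell from a WT median of 8.73 to 8.14, 7.91 and 8.11 (-0.63 ± 0.16, adjusted p = 0.0024), as did the clock gene Per1 (-0.58 ± 0.11, adjusted p = 0.0002) and Crem (-0.57 ± 0.10, adjusted p = 0.00011), a factor of spermatid gene expression that was named after its values were seen.

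Because the pathway ends at CREB, and the driver is the gene of the factor NR5A1 (SF1), promoters were searched on both strands for the cAMP response element TGACGTCA and for the NR5A1 site CAAGGTCA, in 250 bases before to 50 bases after each start. RefSeq promoters on GRCm38.p6 were found for 14664 of the 19007 genes. TGACGTCA occurred in 2.53% of their 18138 promoters, in 2.27% of promoters of genes called higher and in 3.75% of those called lower, and in 1.37% and 3.54% for genes at least 2-fold higher and lower. CAAGGTCA occurred in 1.24%, 1% and 1.49%, and in 1.49% and 1.93% of promoters of genes at least 2-fold higher and lower. Windows of 60 bases from Prkar1a and from some of the genes with the largest changes that hold a motif are shown to place the letters searched, which stand in capitals (the NR5A1 site is shown as its reverse complement TGACCTTG). These genes were chosen after their values were seen.
Prkar1a, chr11:109650874-109650933, plus strand, -0.30: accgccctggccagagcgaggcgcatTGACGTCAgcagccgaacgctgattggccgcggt
H4c1, a histone H4 gene, chr13:23761314-23761373, minus strand, -1.52: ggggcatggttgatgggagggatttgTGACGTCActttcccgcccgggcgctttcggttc
Znrf4, a ubiquitin ligase gene, chr17:56512519-56512578, minus strand, -1.37: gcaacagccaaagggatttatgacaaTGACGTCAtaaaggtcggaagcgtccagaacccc
Ltbp1, a carrier of latent TGF-beta, chr17:75005430-75005489, plus strand, 1.55: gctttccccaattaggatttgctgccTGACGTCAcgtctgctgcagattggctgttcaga
Lmcd1, a LIM domain cofactor, chr6:112273602-112273661, plus strand, 1.35: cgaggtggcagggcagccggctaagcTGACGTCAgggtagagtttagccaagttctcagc
Sgk1, a hormone-induced kinase, chr10:21978583-21978642, plus strand, 1.68: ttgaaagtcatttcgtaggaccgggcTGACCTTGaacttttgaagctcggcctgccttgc
Clec2d, a lectin-like receptor ligand, chr6:129180475-129180534, plus strand, 1.36: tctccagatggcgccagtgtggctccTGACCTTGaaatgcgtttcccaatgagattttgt
The number after each strand is the prKO minus WT difference in log2. Windows with the response element were picked from rises and from falls separately, so its presence on both sides was fixed by that choice. Prkar1a itself holds the response element 49 bases before its start.

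Among 10 steroid synthesis genes tested, 6 were higher, 1 lower and 3 not called, with a median of 0.63. The lower one was the adult isoform Hsd3b6. Star, which carries cholesterol into mitochondria and is induced by PKA, lay between 8.60 and 9.74 (median 9.21) in WT and at 10.95, 11.73 and 11.49 in prKO (2.22 ± 0.24, adjusted p = 4.4e-07). Cyp11a1, the side-chain cleavage enzyme that starts steroid synthesis, went from a WT median of 10.23 (highest 10.45) to 11.66, 12.52 and 12.17 (1.89 ± 0.14, adjusted p = 1.1e-08). All prKO arrays exceeded all WT arrays in both, with replicate 2 the highest. Hsd3b1, which serves fetal and adult steroid cells, rose by 1.36 ± 0.23 (adjusted p = 6.9e-05), Fdx1, the mitochondrial electron carrier of CYP11A1, by 1.39 ± 0.17 (adjusted p = 2e-06) and the outer membrane protein Tspo by 0.84 ± 0.11 (adjusted p = 3e-06). Hsd3b6 stood at 7.81, 6.87 and 6.18 against 9.69 to 10.40 (median 10.13) in WT. Hsd3b1 and Hsd3b6 are close paralogs that went in opposite directions, and cross-hybridisation between their probe sets was not tested. Cyp17a1, needed for androgens, was not called (0.32 ± 0.16, adjusted p = 0.11), but passed the test without replicate 1 (0.48, adjusted p = 0.028); it was named after its values were seen.

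Genes of cholesterol synthesis and uptake, which feed steroid synthesis, were called higher in 20 of 23 and lower in 0, with a median of 0.88; 18 were called without replicate 1. In 20 of the 23 tested every prKO array lay above every WT array, a pattern held by 18.3% of all genes tested. Hsd17b7, a late enzyme of the pathway, lay between 5.66 and 6.28 (median 6.02) in WT and at 7.70, 8.31 and 7.87 in prKO (1.96 ± 0.13, adjusted p = 2.7e-09). Msmo1 (1.65 ± 0.14, adjusted p = 2.4e-08) and Nsdhl (1.43 ± 0.09, adjusted p = 1.6e-09), which act on methyl sterols, and Scarb1, the receptor for high-density lipoprotein (1.28 ± 0.15, adjusted p = 9.3e-07), rose with it.

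Leydig lineage genes were higher in 9 of 11 and lower in 0, with a median of 0.81. Nr5a1 encodes SF1 itself and rose from a narrow WT range of 7.23 to 7.39 (median 7.33) to 8.10, 8.79 and 9.14 (1.35 ± 0.15, adjusted p = 5.5e-07). Markers of stem or progenitor Leydig cells, Pdgfra (1.60 ± 0.19, adjusted p = 1.5e-06) and Nr2f2 (1.02 ± 0.11, adjusted p = 3.8e-07), and markers of mature ones, Sult1e1 (1.78 ± 0.26, adjusted p = 1.5e-05) and Hsd11b1 (1.21 ± 0.16, adjusted p = 6.5e-06), both rose.

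Adrenal cortex genes were higher in 5 of 7 tested, with a median of 1.29 and no member lower. Cyp21a1, the 21-hydroxylase of glucocorticoid and mineralocorticoid synthesis, lay between 4.27 and 4.73 in WT, where its mean was below the filter value, and at 7.08, 8.28 and 8.46 in prKO (3.37 ± 0.29, adjusted p = 3.8e-08). Cyp11b1, the 11-beta-hydroxylase of glucocorticoid synthesis, went from a WT median of 4.80 (4.57 to 5.31) to 5.63, 6.67 and 8.18 (2.00 ± 0.30, adjusted p = 1.9e-05). The prKO arrays differed among themselves by more than 2 log2 units in Cyp11b1 and still lay above WT. Mrap, which carries the corticotropin receptor to the cell surface, rose by 2.59 ± 0.19 (adjusted p = 9.5e-09), Mgarp by 1.29 ± 0.14 (adjusted p = 6.5e-07) and the nuclear receptor Nr0b1 by 0.75 ± 0.12 (adjusted p = 5e-05). In the adrenal medulla list, whose level in the arrays is given above, Slc18a1 rose by 0.54 ± 0.09 (adjusted p = 0.00011) and Chga fell by 0.69 ± 0.16 (adjusted p = 0.0012).

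Sertoli cell genes were more often higher than lower. Of 22 tested, 14 were higher and 2 lower, with a median of 0.54, and 17 were higher without replicate 1. Their mean level relative to WT was 0.12, 0.56 and 0.60 in prKO replicates 1 to 3. Replicate 1 lay within the WT range of -0.13 to 0.18. Inha, the inhibin subunit that lowers follicle-stimulating hormone, lay between 8.39 and 8.85 (median 8.79) in WT and at 9.72, 10.39 and 10.14 in prKO (1.39 ± 0.13, adjusted p = 7.6e-08). Shbg, which codes for androgen-binding protein, rose by 1.22 ± 0.13 (adjusted p = 4.1e-07), Cst12 by 0.99 ± 0.15 (adjusted p = 2.6e-05), Ctsl by 0.83 ± 0.15 (adjusted p = 0.00016) and the sex-determining factor Sox9 by 0.57 ± 0.13 (adjusted p = 0.0014). The 2 lower members were Rhox5, an androgen-induced homeobox gene, at 5.97, 6.14 and 6.72 against 6.92 to 7.40 in WT (-0.93 ± 0.12, adjusted p = 3e-06), and Fshr, the receptor of follicle-stimulating hormone (-0.68 ± 0.14, adjusted p = 0.00037). Both lay below all WT arrays in all prKO arrays. Sox9 and Fshr were named after their values were seen. Sox9 in prKO replicate 1, at 8.17, lay within its WT range of 7.92 to 8.33.

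Genes of tight and gap junctions, which build the blood-testis barrier, were higher in 9 of 13 and lower in 1 (median 0.59). Ocln (1.13 ± 0.12, adjusted p = 2.3e-07), Cldn11 (0.99 ± 0.12, adjusted p = 2.8e-06) and F11r (0.90 ± 0.12, adjusted p = 4.9e-06) rose. Growth factors of the germ cell niche were higher in 6 of 12 and lower in 0 (median 0.33). Igf1 rose from a WT median of 6.50 (6.29 to 6.75) to 8.02, 8.36 and 9.47 (2.11 ± 0.23, adjusted p = 4.4e-07), and Kitl, the ligand of the receptor KIT on differentiating spermatogonia, by 1.60 ± 0.15 (adjusted p = 7.3e-08). Cxcl12, a chemokine for stem cells, rose by 0.90 ± 0.13 (adjusted p = 1e-05), and Csf1, the growth factor of macrophages, by 0.70 ± 0.13 (adjusted p = 0.00016).

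Retinoic acid genes were mixed, 5 higher and 2 lower of 14 (median 0.19). Aldh1a1, a retinoic acid synthesising enzyme of Sertoli and Leydig cells, rose by 1.22 ± 0.18 (adjusted p = 1.7e-05), whereas Aldh1a2, the enzyme of germ cells, fell by 0.46 ± 0.10 (adjusted p = 0.00082). Ovarian granulosa cell genes were higher in 8 and lower in 1 of 15 (median 0.40), among them Wnt4, a factor of ovarian development (1.48 ± 0.14, adjusted p = 1.3e-07), Amhr2, the receptor of anti-Mullerian hormone, which Sertoli cells also make (0.68 ± 0.15, adjusted p = 0.00078), and Rspo1, a WNT amplifier (0.66 ± 0.10, adjusted p = 2.7e-05). Of 21 WNT pathway genes, 8 were higher and 2 lower (median 0.18). The secreted antagonist Sfrp1 stood at 7.97, 8.17 and 10.96 against 6.39 to 6.89 (median 6.68) in WT (2.36 ± 0.39, adjusted p = 5e-05), with replicate 3 far above the other 2, and Wnt5a rose by 0.84 ± 0.14 (adjusted p = 5.6e-05).

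Germ cell genes of meiosis and later stages were lower. Meiotic prophase genes were lower in 20 of 28 and higher in 0 (median -0.44), round spermatid and acrosome genes lower in 18 of 20 and higher in 0 (median -0.66), and elongating spermatid genes lower in 15 of 19 and higher in 1 (median -0.93). Tex11, a meiotic crossover gene, lay between 7.65 and 7.99 (median 7.76) in WT and at 6.62, 5.95 and 7.17 in prKO (-1.19 ± 0.24, adjusted p = 0.00048). The synaptonemal complex gene Syce2 (-0.86 ± 0.11, adjusted p = 2.1e-06), the recombinase Dmc1 (-0.85 ± 0.15, adjusted p = 0.00015) and Pgk2, the glycolytic kinase of meiotic and later cells (-0.72 ± 0.09, adjusted p = 2.5e-06), fell as well. Hormad1 fell (-0.73 ± 0.21, adjusted p = 0.0074) but did not pass the test without prKO replicate 3 (-0.29, adjusted p = 0.16), nor when WT replicates 1 to 4 were the only controls (-0.66, adjusted p = 0.052).

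The spermatid kinase Tssk6 went from 8.91 (8.76 to 9.33) to 6.77, 6.71 and 7.39 (-2.05 ± 0.22, adjusted p = 3.9e-07). Its relative Tssk2 (-1.17 ± 0.17, adjusted p = 1.1e-05) and the sperm calcium channel subunit Catsper4 (-1.10 ± 0.24, adjusted p = 0.00085) followed. Among genes of sperm head and tail, Fscb of the fibrous sheath (-1.57 ± 0.19, adjusted p = 2e-06), Prm1, which packs sperm DNA (-1.53 ± 0.34, adjusted p = 0.001), and Akap4, the PKA anchor of the sperm tail (-1.25 ± 0.12, adjusted p = 1.9e-07), fell. Odf1, a gene of the outer dense fibres, was the single elongating spermatid gene called higher (0.46 ± 0.10, adjusted p = 0.00057); it was named after its values were seen, its probe sets disagree, and their average was lower (-0.34, adjusted p = 0.0026).

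Spermatogonial genes had no common direction, 4 of 21 being higher and 8 lower (median -0.16), with 3 to 12 lower under other settings. Zbtb16, a factor of undifferentiated spermatogonia, lay between 6.68 and 6.93 in WT and at 7.70, 7.55 and 8.13 in prKO (0.98 ± 0.10, adjusted p = 2.9e-07). Kit, carried by differentiating spermatogonia and by mast and Leydig cells, was lower at 6.74, 7.82 and 7.53 against 7.72 to 8.26 (-0.69 ± 0.17, adjusted p = 0.0022). Replicate 2 overlapped with WT in Kit. Sohlh2 (-0.56 ± 0.13, adjusted p = 0.0013) and Sall4 (-0.48 ± 0.12, adjusted p = 0.0022) also fell.

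Cell cycle genes were lower in 9 of 16 and higher in 0 (median -0.27), among them the mitotic genes Birc5 (-0.64 ± 0.11, adjusted p = 6.8e-05) and Bub1 (-0.48 ± 0.10, adjusted p = 0.00034). Targets of p53 and cell death genes were higher in 7 of 10 and lower in 0 (median 0.52). Ccng1 rose from a WT range of 7.70 to 8.23 to 10.46, 9.65 and 9.65 (1.95 ± 0.19, adjusted p = 1.3e-07), Casp8 by 1.74 ± 0.12 (adjusted p = 4e-09), the death receptor Fas by 1.22 ± 0.15 (adjusted p = 2.7e-06) and the cell cycle inhibitor Cdkn1a by 0.99 ± 0.14 (adjusted p = 1.2e-05). The groups did not overlap in any of these 4 genes. The WT mean of Fas, 4.57, was below the filter value of 4.62, so the size of its rise depends on the lower end of the array's range.

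Extracellular matrix genes were higher in 27 of 28 and lower in 0, with a median of 1.63 against 0.02 for all genes. In 26 of the 28 tested every prKO array lay above every WT array, against 18.3% of all genes tested. Besides Dpt, Mmp2 and Timp1, the proteoglycan gene Lum (2.72 ± 0.23, adjusted p = 2.8e-08), the collagen Col3a1 (2.47 ± 0.28, adjusted p = 7.7e-07) and the crosslinking enzyme Lox (2.31 ± 0.27, adjusted p = 1e-06) rose. The WT mean of Lum, 4.61, was just below the filter value of 4.62. Col3a1 stood at 9.31, 9.42 and 11.11 against 7.29 to 7.99 in WT, replicate 3 again the highest. Mineralisation genes did not follow as a group, 2 of 10 being higher and 1 lower. The 2 were Mgp, an inhibitor of calcification, with 10.23, 10.44 and 11.55 against 7.96 to 8.36 (2.59 ± 0.25, adjusted p = 1.2e-07), and the phosphatase Alpl (0.79 ± 0.13, adjusted p = 5.4e-05).

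Peritubular myoid genes, which mark the contractile cells around the tubules, were higher in 7 of 11 and lower in 1 (median 0.49). Their mean level relative to WT was 0.47, 0.15 and 0.50 in prKO replicates 1 to 3. Replicate 2 lay within the WT range of -0.14 to 0.32. Acta2 rose by 0.81 ± 0.10 (adjusted p = 1.6e-06) and Tagln by 0.84 ± 0.14 (adjusted p = 8.6e-05), whereas Actg2, a smooth muscle actin, fell from 9.79 (9.49 to 10.25) to 8.81, 8.51 and 8.55 (-1.18 ± 0.13, adjusted p = 4.2e-07). Endothelial genes were higher in 12 of 13 and lower in 0 (median 0.65). Emcn (1.76 ± 0.23, adjusted p = 4.1e-06), the VEGF receptor Kdr (1.60 ± 0.24, adjusted p = 1.6e-05) and the junction protein Pecam1 (1.46 ± 0.13, adjusted p = 5.1e-08) led them.

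Macrophage genes were higher in 15 of 21 and lower in 0 (median 0.81). Lyz2, a lysozyme of myeloid cells, lay between 6.88 and 7.76 (median 7.12) in WT and at 9.14, 9.20 and 10.43 in prKO (2.42 ± 0.25, adjusted p = 2.7e-07). Ctss, a protease of antigen processing (1.83 ± 0.21, adjusted p = 9.4e-07), the scavenger receptor Cd163 (1.52 ± 0.13, adjusted p = 4.9e-08) and Csf1r, the receptor for CSF1 (1.13 ± 0.14, adjusted p = 2.1e-06), rose. The antigen-presenting gene H2-Aa did not, at 5.34, 5.47 and 5.39 against 5.17 to 6.33 in WT (-0.32 ± 0.23, adjusted p = 0.27). Of 10 lymphocyte and mast cell genes, 3 were higher and 1 lower, namely the mast cell protease Cpa3 (0.84 ± 0.18, adjusted p = 0.00075), Ptprc (0.75 ± 0.18, adjusted p = 0.0024), Tpsb2 (0.33 ± 0.10, adjusted p = 0.0083) and, lower, the T cell gene Cd4 (-0.28 ± 0.09, adjusted p = 0.01). The mean level of this list relative to WT was 0.03, 0 and 0.31 in prKO replicates 1 to 3. Only replicate 3 lay outside the WT range of -0.08 to 0.08. With replicate 2 alone the differences were 0.08 for Cpa3, 0.47 for Ptprc, 0.10 for Tpsb2 and -0.34 for Cd4. The WT mean of Cpa3, 4.42, was below the filter value of 4.62.

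Complement and acute-phase genes were higher in 12 of 14 and lower in 0 (median 1.41). Their mean level relative to WT was 1.55, 1.25 and 1.80 in prKO replicates 1 to 3, against -0.09 to 0.10 in WT. C4b rose from 7.01 (6.37 to 7.16) to 8.90, 9.04 and 10.24 (2.49 ± 0.26, adjusted p = 3.9e-07), Lbp, which binds bacterial lipopolysaccharide, by 2.48 ± 0.19 (adjusted p = 1.3e-08) and Serping1, the inhibitor of the first complement component, by 2.14 ± 0.15 (adjusted p = 4.1e-09). Haptoglobin, Hp, was uneven at 9.35, 6.51 and 8.48 (2.19 ± 0.36, adjusted p = 5.2e-05), lowest in the array with low adipose genes. A link between Hp and the adipose genes was not tested. Interferon response genes were higher in 6 of 15 (median 0.25), with Oasl2 the largest (1.26 ± 0.19, adjusted p = 2.5e-05). The mean level of this list relative to WT was 0.29, 0.43 and 0.42 in prKO replicates 1 to 3, against -0.16 to 0.14 in WT.

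Genes of glutathione and oxidative defence were higher in 15 of 17 and lower in 1 (median 0.68), and in 12 without replicate 1. After Gpx3 the largest were the glutathione transferase Gsta3 (1.58 ± 0.15, adjusted p = 1.2e-07), the peroxidase Gpx1 (1.57 ± 0.17, adjusted p = 3.8e-07), the haem oxygenase Hmox1 (1.16 ± 0.19, adjusted p = 5.8e-05) and the quinone reductase Nqo1 (1.14 ± 0.19, adjusted p = 6.8e-05). Reference genes moved as well, 5 of 8 being higher (median 0.38). Pgk1, the somatic counterpart of Pgk2, rose by 1.25 ± 0.11 (adjusted p = 5.4e-08), B2m by 1.14 ± 0.22 (adjusted p = 0.00027) and Hprt by 0.85 ± 0.16 (adjusted p = 0.00021). The 1 red blood cell gene tested was not called.

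**Figure D2:**
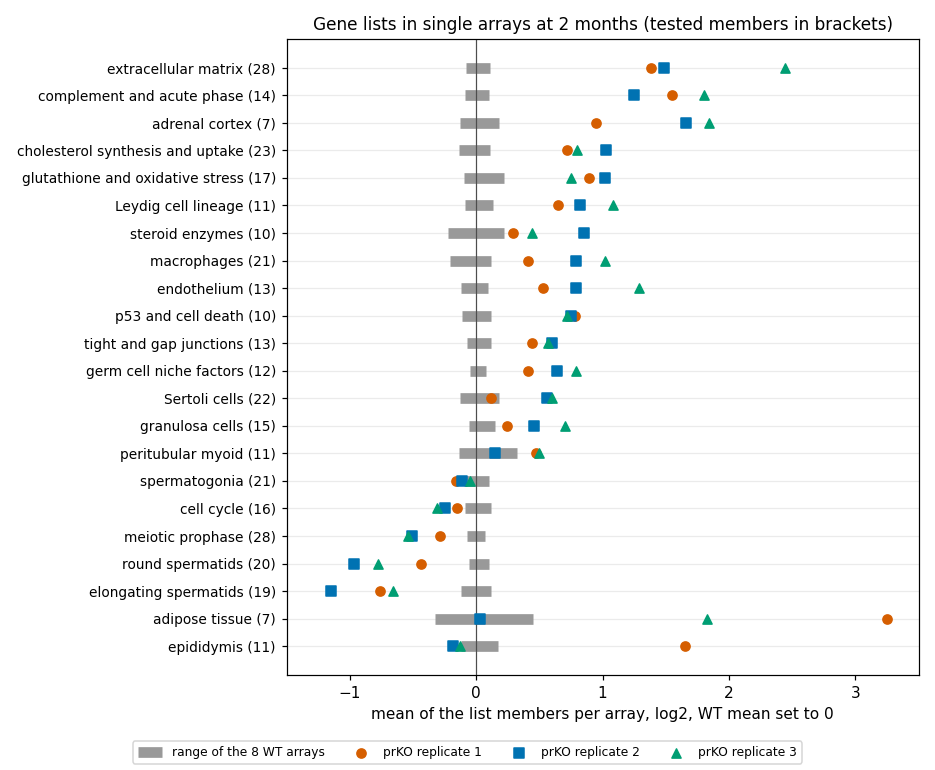
Mean of the tested members of each gene list in single arrays (horizontal axis, log2, relative to the mean of the 8 WT arrays); the grey bar spans the 8 WT arrays and coloured symbols are the 3 prKO arrays. Extracellular matrix lies at 1.38, 1.49 and 2.44 and elongating spermatids at -0.76, -1.15 and -0.66 in prKO replicates 1 to 3, while the epididymis list is high only in replicate 1 (1.65) and the adipose list in replicates 1 and 3 (3.25 and 1.83).

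Replicate 1 of prKO differed from the other 2 in genes of the epididymis, the duct next to the testis. Adam7, a sperm-maturation gene of the epididymis, stood at 11.70 in replicate 1 and at 4.25 and 4.47 in replicates 2 and 3, against 4.28 to 6.11 (median 4.41) in WT. Replicate 1 had been singled out by Adam7 in earlier results. Rnase9 (11.09, 3.73 and 3.62) and Crisp4 (8.25, 3.66 and 3.96) were likewise high in replicate 1. So were the beta-defensin Defb39 (10.22, 3.78 and 3.51) and lactoferrin, Ltf (10.07, 4.74 and 5.37), which are not in the epididymis list. Over the 11 tested members of the epididymis list, 0 were called higher and 2 lower. Calls made with all arrays but not without replicate 1 numbered 1186, of which 531 were higher and 655 lower. Ceacam10 (2.51, adjusted p = 0.0086), Defb39 (2.20, adjusted p = 0.04) and Ltf (2.02, adjusted p = 0.015) belonged to them, and without replicate 1 their differences were 0.78, 0.01 and 0.35. These genes were named because their calls were lost without replicate 1, so the loss was fixed by that choice.

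Adipose genes were high in 2 of the 3 prKO arrays. Of 7 tested, 6 were higher with all arrays (median 1.70) and 5 without replicate 1 (0.96). Fabp4, the fatty acid carrier of fat cells, stood at 10.25, 4.74 and 8.48 against 3.80 to 5.85 in WT (3.17 ± 0.71, adjusted p = 0.001). With replicate 2 alone, a setting added after the data were seen, its difference was 0.09, which follows from the value of that array. Leptin, Lep (8.30, 4.85 and 6.44), resistin, Retn (9.49, 6.31 and 8.24), Car3 (10.65, 5.45 and 9.02) and Cidec (8.54, 5.32 and 6.54) had the same order. Plin1 alone of those named was even across the arrays (7.08, 6.78 and 6.83 against 5.86 to 6.39). The mean level of the list relative to WT lay at 3.25, 0.03 and 1.83 against -0.33 to 0.45 in WT. Its part in other results was not tested. Replicate 2, whose adipose level lay within the WT range, is set beside replicates 1 and 3 by mean list level relative to WT. That level was 1.49 for matrix genes (1.38 and 2.44 in replicates 1 and 3) and 1.03 for cholesterol genes (0.72 and 0.80). It was 1.25 for complement and acute-phase genes (1.55 and 1.80) and 0.15 for myoid genes (0.47 and 0.50). For interferon response genes it was 0.43 (0.29 and 0.42), and for elongating spermatid genes -1.15 (-0.76 and -0.66).

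**Figure D3:**
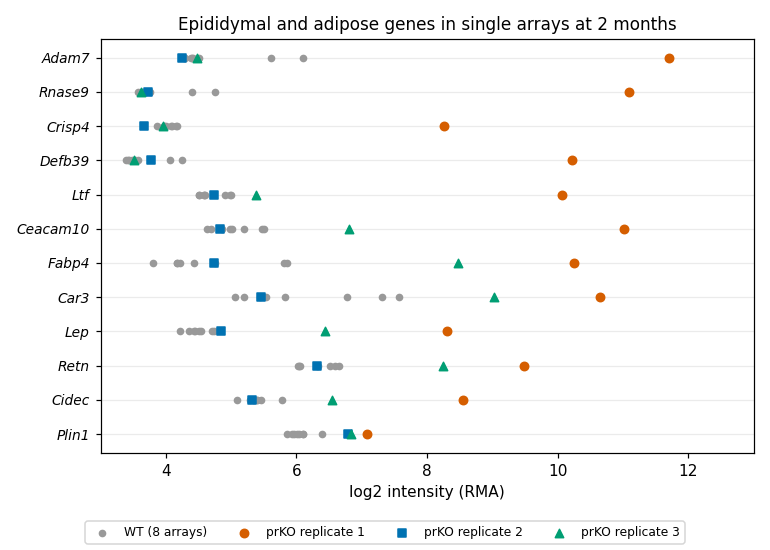
Log2 intensity (horizontal axis) of 6 genes first seen as high in prKO replicate 1, of which Adam7, Rnase9 and Crisp4 are in the epididymis list, and of 6 adipose genes; grey dots are the 8 WT arrays and coloured symbols the 3 prKO arrays. Adam7 reads 11.70 in prKO replicate 1 and 4.25 and 4.47 in the others, and Fabp4 reads 10.25, 4.74 and 8.48.

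The change at 2 months differed from that at 2 weeks in 5351 genes (28.2%), 3011 upward (15.8%) and 2340 downward (12.3%), with 2.41% of genes at least 2-fold upward and 3.69% downward, tested as the difference of both differences over all 39 arrays; with arrays centred on their median 42% of the calls were upward instead of 56.3%. Each age has its own WT arrays. At 2 weeks itself 10.5% of genes differed between prKO and WT, 7.9% higher and 2.59% lower. Steroid genes were higher in 6 of 10 at 2 weeks, and of the 10, 3 had a lower and 1 a higher change at 2 months. Cyp11a1 differed from WT by 2.93 at 2 weeks and by 1.89 at 2 months (difference -1.04 ± 0.24, adjusted p = 0.00098), and Cyp17a1 by 1.86 and 0.32 (-1.55 ± 0.41, adjusted p = 0.0039). For Star (2.98 and 2.22, adjusted p = 0.11) and Cyp21a1 (4.22 and 3.37, adjusted p = 0.096) the ages did not differ past the threshold. Nr4a1 turned from a rise of 1.10 to a fall of 0.63 (-1.73 ± 0.21, adjusted p = 1.1e-07), and Pde10a, a phosphodiesterase named after its values were seen, from 2.03 to 0.10 (-1.93 ± 0.17, adjusted p = 4.5e-10), while the ages were not called different for Pde7b (3.04 and 2.71, adjusted p = 0.48).

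Matrix genes were higher at both ages. They were called in 24 of 28 at 2 weeks (median 0.80), and in 17 the change was larger at 2 months, in 0 smaller. Macrophage genes were higher in 5 of 21 at 2 weeks, and 10 changed upward between the ages, with Lyz2 at -0.15 and then 2.42 (2.57 ± 0.29, adjusted p = 3.1e-08). Sertoli genes were higher in 3 and lower in 2 of 22 at 2 weeks. Between the ages 10 changed upward and 1 downward, with Shbg among those upward (-0.04 and 1.22, difference 1.26 ± 0.16, adjusted p = 2.2e-07). Spermatids are absent or rare at 2 weeks, and 0 of their listed genes were called then; 10 of 20 round and 12 of 19 elongating spermatid genes were lower in the age contrast. Cyp11b1 went from 0.23 to 2.00 (1.77 ± 0.31, adjusted p = 4.3e-05). The largest upward differences were in Ifi205 (3.68), Ctla2a (3.58), Clca3a2 (3.36), Abcb1b (3.13), the chitinase-like macrophage gene Chil3 (2.93) and Cnn3 (2.83), and the largest downward ones in Prnd (-3.58), Hmgb1-rs17 (-2.90), Rbm31y (-2.67), Hsd3b6 (-2.64), Klk1b8 (-2.59) and Serpina3a (-2.58). Clca3a2 was uneven at 2 months, at 10.28, 6.29 and 6.10 in prKO replicates 1 to 3. Its difference from WT was 2.80 with all arrays and 1.44 without replicate 1. Chil3 had a WT mean of 4.53 at 2 months, below the filter value of 4.62.

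**Figure D4:**
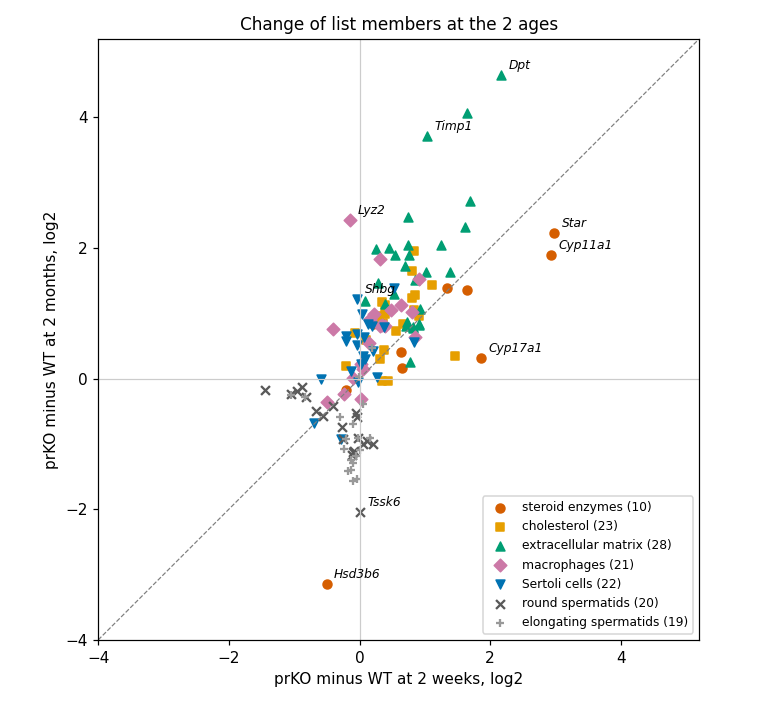
Difference between prKO and WT in log2 at 2 weeks (horizontal axis) and at 2 months (vertical axis) for the tested members of 7 gene lists; each point is a gene, and on the dashed line both ages are equal. Star (2.98 and 2.22) and Cyp11a1 (2.93 and 1.89) lie below the line, Dpt (2.17 and 4.65) and Lyz2 (-0.15 and 2.42) above it, and Tssk6 (0.01 and -2.05) near 0 at 2 weeks.

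Against the Sertoli cell line srKO at 2 months, 4860 genes differed (25.6%), 2556 higher (13.4%) and 2304 lower (12.1%) in prKO, and against the steroid cell line lrKO 8660 (45.6%), 4836 higher (25.4%) and 3824 lower (20.1%). At least 2-fold differences were found in 1.79% of genes against srKO and 9.67% against lrKO (5.08% higher, 4.59% lower). The first count was 2683 without prKO replicate 3 and 1083 when only those 2 groups were fitted. Centring the arrays moved the share of higher calls from 52.6% to 34% against srKO and from 55.8% to 39.1% against lrKO. Prkar1a was lower in prKO than in srKO (-0.53 ± 0.10, adjusted p = 0.00093) and in lrKO (-0.33 ± 0.10, adjusted p = 0.0084). In srKO, at 8.98 to 9.18, Prkar1a was itself higher than in WT (0.24 ± 0.08, adjusted p = 0.03), which adds to the first difference. The lrKO line, at 8.86 to 8.90, was not called against WT (0.04 ± 0.08, adjusted p = 0.94). Star was higher than in srKO (1.67 ± 0.27, adjusted p = 0.00039) and in lrKO (1.82 ± 0.27, adjusted p = 1.8e-05), where it lay between 9.48 and 10.21 and between 9.48 and 9.68. Cholesterol genes were higher than in srKO in 19 of 23 and than in lrKO in 18, matrix genes in 25 and 27 of 28. Mmp2 reached 6.50 to 7.18 in srKO and 5.72 to 6.30 in lrKO, below the lowest prKO array at 9.13 (3.65 and 4.42, adjusted p = 8.4e-06 and 6.4e-08). The rise of Cyp21a1 over WT was shared by srKO (1.82 ± 0.26, adjusted p = 3.4e-05) and lrKO (1.34 ± 0.26, adjusted p = 0.034). It was larger in prKO than in srKO (1.55 ± 0.33, adjusted p = 0.0024) and in lrKO (2.03 ± 0.33, adjusted p = 4.5e-05).

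Spermatid genes were compared with both lines. Round spermatid genes were lower than in lrKO in 17 of 20 and than in srKO in 7, and elongating ones in 15 and 2 of 19; the difference between these counts was not tested. Tssk6 lay at 6.00 to 7.49 in srKO and was not called against prKO (0.18 ± 0.24, adjusted p = 0.62), but was lower than in lrKO (-2.24 ± 0.25, adjusted p = 7.2e-07), and Prnd was 4.21 lower than in lrKO (adjusted p = 9.9e-12) with no call against srKO (-0.37 ± 0.17, adjusted p = 0.12). Inha was higher than in lrKO (1.23 ± 0.14, adjusted p = 1.4e-06) and not called against srKO (0.03 ± 0.14, adjusted p = 0.91). Abcb1b (4.29 ± 0.40, adjusted p = 2e-06), Ctla2a (4.16), Dpt (3.70), Mmp2, Chil3 (3.32) and Fabp4 (3.16) were the largest rises over srKO, and Zfp981 (-2.31), Hsd3b6 (-1.98 ± 0.35, adjusted p = 0.00069), Rbm31y (-1.67), H2-Aa (-1.66 ± 0.25, adjusted p = 0.00026) and the ion channel gene Cngb3 (-1.47) were among the largest falls. H2-Aa lay between 6.28 and 7.58 in srKO, above all prKO arrays. Over lrKO the largest rises were Dpt (4.82), Ctla2a (4.53), Mmp2, Abcb1b (4.11), Ifi205 (4.10) and Timp1 (3.84), and after Prnd the falls included Hmgb1-rs17 (-3.02), Cst13 (-2.83), Zc2hc1b (-2.82), Rbm31y (-2.80) and Faiml (-2.79).

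**Figure D5:**
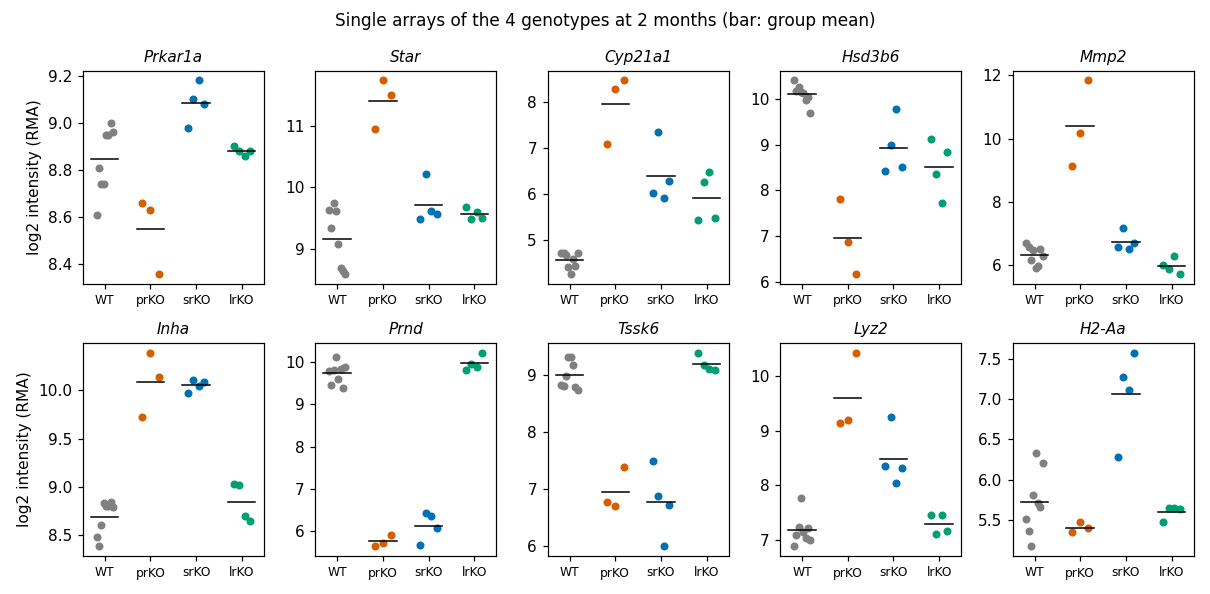
Log2 intensity of 10 genes (vertical axes, each with its own range) in single arrays of WT (8 arrays), prKO (3), srKO (4) and lrKO (4) at 2 months; dots are arrays and the bar is the group mean. Star and Mmp2 are highest in prKO, without overlap. Cyp21a1 has its highest mean in prKO, but the highest srKO array (7.34) lies above the lowest prKO array (7.08). Prnd and Tssk6 are low in prKO and srKO, and H2-Aa is highest in srKO (6.28 to 7.58).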

How the data were processed

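Whole-testis RNA was measured on Affymetrix arrays. The deposited table holds log2 intensities normalized by the authors with RMA, per the submitters' processing notes; its settings and genome build: not given in the sources used here. The platform annotation gave 1 symbol to 23521 of 41345 probe sets, several to 1814 and none listed to 16010. For 22180 genes the probe set with the highest mean was kept, and 19007 genes with a group mean above the 25th percentile (4.62) were tested. The 2-month genotypes (19 arrays) were fitted in 1 model with limma 3.58.1 in R 4.3.3, the age contrast over all 39 arrays; tests were two-sided, Benjamini-Hochberg adjusted over all genes, threshold 0.05. The code was tested on simulated data. Groups came from titles. Array number limits the precision.

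The genes, lists and tests were chosen with earlier results of these data known. Named were Prkar1a, genes with the 12 largest rises and falls called with and without prKO replicate 1, the 6 largest called only with it, up to 6 members a list with the largest differences, and the 6 largest age and line differences each way; model, clone, small RNA and receptor family names were passed over, and not every gene so chosen is printed. List members that no single-symbol probe set covers were not analysed. Lists are described by counts and medians, without a test. Same-numbered prKO and WT arrays did not deviate together (correlations -0.12, 0.06 and 0.08).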

Additional observations from a re-analysis of the deposited data

Results flagged for a closer look

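In 13 of 160 genes named, 1 of the 8 WT arrays lay far from the others by Dixon's test, which chance gives in about 1 of 20 such groups. WT replicate 1 read 7.11 for Serpina3n, 9.38 for Ddi1, 6.39 for Plin1 and 5.31 for Cyp11b1, and WT replicate 2 read 7.73 for F11r and 6.60 for Zfp981. WT replicate 4 read 10.21 for Acta2 and 7.76 for Lyz2, and WT replicate 8 read 4.65 for Cd163 and 6.04 for Lmcd1. Crem read 9.74 in WT replicate 5, Hsd11b1 4.71 in WT replicate 6 and Col3a1 7.99 in WT replicate 7.

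The change between prKO and WT differed between 2 weeks and 2 months in 5351 genes by limma. As the change at 2 months minus that at 2 weeks, in log2, it was positive in Ifi205 (3.68), Ctla2a (3.58), Clca3a2 (3.36), Abcb1b (3.13), Chil3 (2.93), Cnn3 (2.83), Lyz2 (2.57), Cyp11b1 (1.77), Shbg (1.26) and Prkar1a (0.48). For Clca3a2, prKO replicate 1 read 10.28 at 2 months, against 6.29 and 6.10 in replicates 2 and 3. The difference between the ages was negative in Prnd (-3.58), Hmgb1-rs17 (-2.90), Rbm31y (-2.67), Hsd3b6 (-2.64), Klk1b8 (-2.59), Serpina3a (-2.58), Pde10a (-1.93), Nr4a1 (-1.73), Cyp17a1 (-1.55) and Cyp11a1 (-1.04).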

How the results depend on the processing

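Of 160 genes named, 130 kept their direction and their side of the threshold in all settings run, 26 lost or gained the call in some setting and 10 turned sign in some. Leaving out 1 array at a time gave 7359 to 9288 calls against WT, 6050 to 9057 without prKO replicate 1, 4503 to 5539 for the age difference, 2683 (without prKO replicate 3) to 5253 against srKO and 7309 to 8596 against lrKO. Replicate 2 of prKO alone, a setting chosen after seeing the data, gave 6050 calls, and fitting only prKO and srKO gave 1083. With replicate 2 alone the differences were -0.21 for Ceacam10, -0.64 for Car3, -0.17 for Rnase9, -0.5 for Adam7, -0.38 for Crisp4, 0 for Retn and -0.06 for Cidec. Leaving out 1 array at a time gave -0.39 to 3.34 for Adam7, -0.22 to 3.52 for Rnase9 and -0.23 to 2.07 for Crisp4. Each was lowest without prKO replicate 1. These genes were first seen as high in that array, so this order was fixed by their choice. For Pde10a the range was -0.04 to 0.27. Centring gave -0.01 for Pde10a, and averaging the probe sets gave -0.34 for Odf1. Same-numbered arrays share only a number; with the replicate block, the calls were 6771 against WT, 7058 without prKO replicate 1, 4173 for the age difference, 3348 against srKO and 7713 against lrKO, H2-Aa stood at 0.04, and the fall of Prkar1a did not pass the test (-0.17, adjusted p = 0.19). The other causes were not tested.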
